A study of Mus musculus with 7 samples.

Results

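The genes described here are 42 genes of T cells, cytotoxic and natural killer (NK) cells, and B and plasma cells, read from the brown adipose tissue of diabetic mice. They were chosen by gene name from a list of lymphocyte genes, and each of the 42 was found among the 55487 genes of the deposited table. T-cell genes made up 20 of them, cytotoxic and NK genes 9, and genes of B cells, antibody chains and plasma cells 13. RNA was sequenced from tissue labelled brown adipose tissue, of 7 NOD/ShiLtJ mice, an inbred strain in which T cells attack the insulin-producing cells of the pancreas. The CB-100 group (4 mice) received the fraction above 100 kDa of buffer that brown adipocytes had conditioned (imBAT in the labels), at 1.5 mg per kg of body weight under the skin for 7 days. The sham group (3 mice) received KRBH buffer, for which the labels give no schedule of its own. Blood glucose before injection was 190 to 230 mg/dL, and tissue was taken 2 to 8 weeks later (the labels do not say which for each mouse). The titles of CB-100 samples carry the code nd and those of sham samples the code d, so that whatever this code marks cannot be told apart from the injection. The question is whether the conditioned fraction went with a change in lymphocyte transcripts of brown fat.

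T cells recognise antigen through a receptor of alpha and beta chains, whose constant parts are encoded by Trac, Trbc1 and Trbc2, and which signals through the CD3 chains and the zeta chain. The kinases Lck and Zap70 pass that signal on. Cytotoxic T cells and NK cells kill target cells with perforin and granzymes. B cells carry a membrane antibody that signals through the CD79 chains, and plasma cells secrete antibodies, joined by the J chain in the case of IgM and IgA. Healthy adipose tissue holds few lymphocytes among many adipocytes and macrophages, and lymph nodes lie close to several fat depots.

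The libraries held between 10815101 counts (CB-100 replicate 2) and 28528471 counts (CB-100 replicate 4). Xist and Ddx3y levels showed 1 male mouse in each group, replicate 3 of CB-100 and replicate 3 of sham. Mitochondrially encoded genes took 22.3% to 36.3% of counts in CB-100 and 14.3% to 22.8% in sham. The 10 brown adipocyte markers were detected, with a summed level of 5015 to 8762 counts per 1000000 counts of the scaled library total (CPM) in CB-100 and 6223 to 9935 CPM in sham. Marker genes of skeletal muscle summed to 1026 to 9012 CPM in CB-100 and 2265 to 4423 CPM in sham, highest in CB-100 replicate 3. Marker genes of red cells summed to 879 to 4544 CPM in CB-100 and 787 to 2201 CPM in sham, highest in CB-100 replicate 4. The part of muscle or blood in the results below was not tested. Over all genes, edgeR's quasi-likelihood test passed 622 of 16823 at a Benjamini-Hochberg adjusted p of 0.05. That number was 97, 24, 187 and 610 without CB-100 replicates 1 to 4, and 14, 319 and 8 without sham replicates 1 to 3.

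Lymphocyte transcripts were scarce in this tissue. Rounded to whole counts, all 42 genes together held 501, 573, 541 and 1063 counts in the 4 CB-100 libraries and 751, 552 and 636 counts in the 3 sham libraries. After scaling by edgeR's TMM factors this was 35.8, 52.3, 38.9 and 49.4 CPM in CB-100 and 39.1, 37.9 and 29.9 CPM in sham, so the groups overlapped. Of the 42, 16 never reached 10 counts in any library and 13 had a count of 0 in at least 1. Ifng, the cytokine interferon gamma, had 0 counts in each of the 7 libraries, which allows a level of up to 0.140 to 0.274 CPM per library (3 counts). A count of 1 has an exact 95% Poisson interval of 0.0253 to 5.57 counts, one of 10 an interval of 4.8 to 18.4, and one of 100 an interval of 81.4 to 122. These intervals and limits cover counting error only. Where 1 count is given below for a group, it is the sum over its 4 CB-100 or 3 sham libraries. Such sums are not scaled for depth or for the number of libraries.

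**Figure D1:**
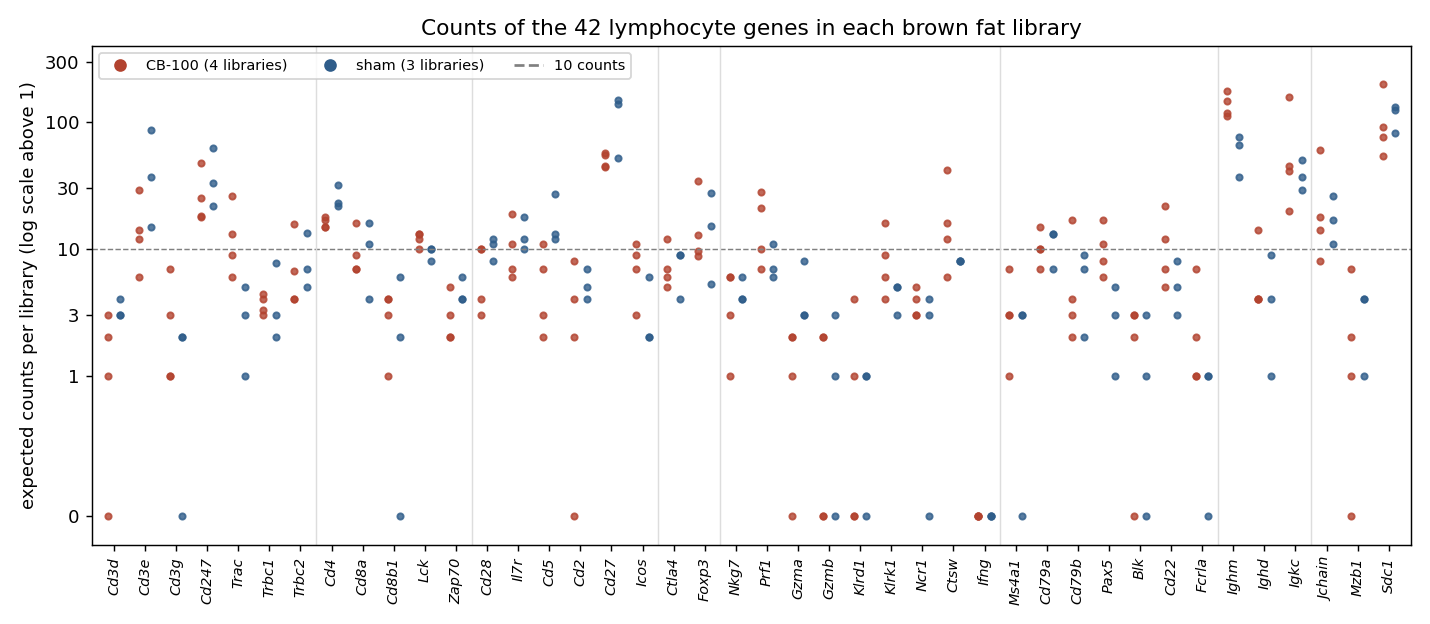
Expected counts of each of the 42 lymphocyte genes (x axis, grouped by role) in each library (y axis, logarithmic above 1), with CB-100 libraries in red and sham libraries in blue. Of the 42 genes, 16 stay under 10 counts (dashed line) in each library, while Ighm, Igkc, Cd27 and Sdc1 stand highest.

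The filter on low counts left 17 of the 42 genes in the test, and the other 25 were too low to count. It asked for about 0.674 CPM in at least 3 libraries of any group. Trac and Ctsw reached this in CB-100 libraries alone, and Prf1, Lck and Cd79a mainly there. For these genes a higher level in CB-100 was in part a condition of entry. Cd5 and Cd28 reached the filter level mainly in sham libraries, so for them a higher level in sham was in part that condition. The numbers of genes below are therefore not independent of the filter. In edgeR's test 0 of the 17 passed, against 3.70% of all tested genes in either direction, 1.42% higher and 2.28% lower in CB-100. At an unadjusted p of 0.05, 5 of the 17 passed in edgeR's test (Ighm, Trac, Ctsw, Prf1 and Cd3e), where 23.9% of all tested genes did. The smallest adjusted p among them was 0.0545, for Ighm. Estimates were above 0 for 11 of the 17 and below 0 for 6, with a median log2 change of 0.19. Over all genes tested 8873 estimates were above 0 and 7950 below, with a median of 0.032. Groups did not overlap for 2 of the 17, Ighm and Trac, both higher in CB-100, where 11.1% of all tested genes were higher and 12.2% lower without overlap. Other tools gave other counts, all of them higher in CB-100. DESeq2 passed 2 (Ighm and Trac), where it passed 5.47% of genes as higher. Limma voom with quality weights passed 1 (Ighm), where it passed 2.70% as higher, and edgeR without the filter passed 1 of 41 (Ighm), where 1.02% of genes passed as higher. In bulk tissue, fewer cells of a type and less RNA per cell cannot be told apart.

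**Figure D2:**
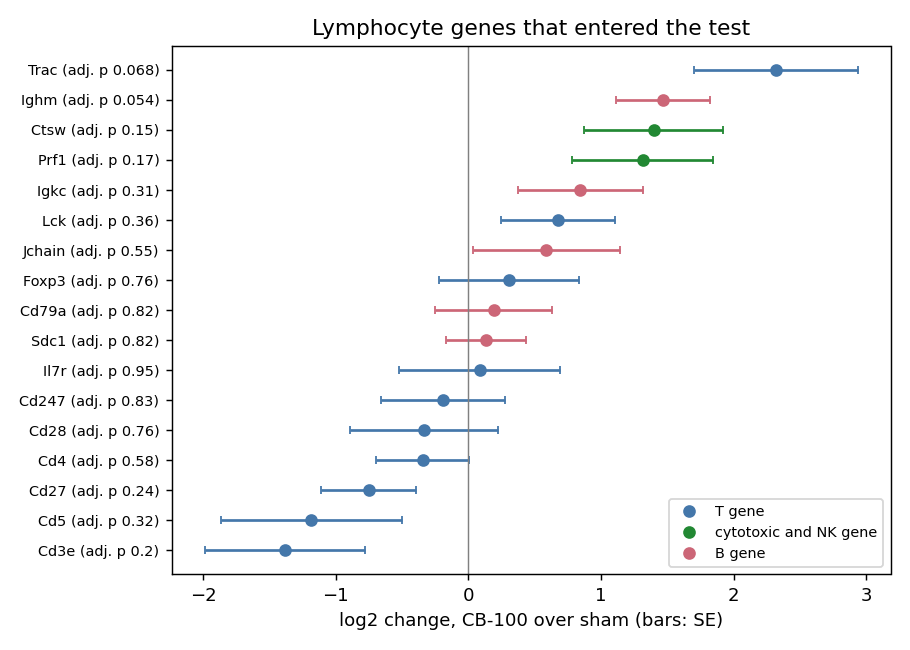
Log2 change of CB-100 over sham with its standard error (bars) for the 17 lymphocyte genes that entered edgeR's test, coloured by lineage and labelled with the adjusted p. Trac (2.32) and Ighm (1.47) have the highest estimates and Cd3e (-1.38) the lowest, and no gene is under 0.05.

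Genes of the T-cell receptor complex gave no common direction. Their summed level was 3.22, 4.86, 5.71 and 5.08 CPM in CB-100 and 8.57, 6.11 and 3.002 CPM in sham, so that sham held both the highest and the lowest library. Of the 7 genes 3 were tested and 0 passed, with estimates of 1 above and 2 below 0. Per kilobase of exon and averaged over all libraries, Trac (0.597 CPM per kb) stood above Cd3e (0.410) and Cd247 (0.371). Cd3d (0.0796) and Cd3g (0.0409) were lower, and Trbc1 and Trbc2 are left out of this order because reads of the pair are hard to assign. Cd3e, Cd3d and Cd3g encode 3 chains of one complex and lie close together on chromosome 9 of GRCm38, at 44998740 to 45009627, 44981786 to 44987339 and 44969572 to 44980431. Cd3e held 61 counts in CB-100 and 139 in sham, where Cd3d held 6 and 10, and Cd3g 12 and 4. Gm48719 and Gm48720 overlap Cd3e, and Gm48719 shares exon bases with it on the opposite strand, so the count of Cd3e is uncertain.

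Trac, the constant part of the alpha chain, lies on chromosome 14 of GRCm38 at 54220521 to 54224206, on the plus strand. It had 13, 9, 6 and 26 counts in CB-100 and 5, 3 and 1 counts in sham. That is 0.93, 0.82, 0.43 and 1.21 CPM in CB-100 and 0.26, 0.21 and 0.05 CPM in sham, without overlap. Its log2 change was 2.32 (SE 0.62, adjusted p = 0.0678 by edgeR), a 4.99-fold higher level that did not pass. DESeq2 gave an adjusted p of 0.0272, and the estimate lay between 1.83 and 2.80 without CB-100 replicate 3 or any 1 sham library (adjusted p 0.0707 to 0.218 by edgeR). Trac passed the filter through CB-100 replicates 1, 2 and 4 alone, and without any of them it was too low to enter the test. The variable segments joined to Trac did not show the same order. All 130 alpha segments together had 3, 1, 1 and 5 counts in CB-100 and 0.99, 4 and 0 counts in sham.

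The beta chain constant genes Trbc1 and Trbc2 stayed under the filter. Together they stood at 0.501, 0.731, 0.719 and 0.930 CPM in CB-100 and 0.364, 1.44 and 0.470 CPM in sham, so the groups overlapped and the highest library was sham replicate 2. Their counts were non-whole in 3 libraries each. The sequences of the pair are printed because a read can be assigned to 1 of them only where they differ. Over 518 aligned coding bases in GENCODE M21 (GRCm38, chromosome 6, plus strand, Trbc1 at 41538218 to 41539662 and Trbc2 at 41546730 to 41548178), 495 were identical (95.6%). The first 259 bases were the same in both, and 1 of the 23 differing bases lay in the first coding exon of 375 bases. Coding bases 241 to 518 are printed below with the differing bases in capitals.
Trbc1: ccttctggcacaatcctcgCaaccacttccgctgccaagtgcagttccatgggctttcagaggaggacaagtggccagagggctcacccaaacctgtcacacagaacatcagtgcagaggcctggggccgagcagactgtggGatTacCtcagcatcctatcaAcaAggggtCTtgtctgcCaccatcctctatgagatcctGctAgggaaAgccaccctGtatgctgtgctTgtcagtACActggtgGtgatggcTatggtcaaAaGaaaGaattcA
Trbc2: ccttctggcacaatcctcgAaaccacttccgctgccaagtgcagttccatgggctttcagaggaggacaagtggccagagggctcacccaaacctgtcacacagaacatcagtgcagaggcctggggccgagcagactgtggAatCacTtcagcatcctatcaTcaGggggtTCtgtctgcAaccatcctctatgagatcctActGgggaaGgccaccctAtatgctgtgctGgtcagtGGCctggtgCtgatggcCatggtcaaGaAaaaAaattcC
The values of Trbc1 and Trbc2 apart are therefore uncertain, and their sum is the level given here.

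Cd3e, the epsilon chain of CD3, had 0.43, 1.28, 0.86 and 1.35 CPM in CB-100 and 4.53, 2.54 and 0.71 CPM in sham. Sham replicate 3 lay below 3 of the 4 CB-100 libraries. The log2 change was -1.38 (SE 0.60, adjusted p = 0.203 by edgeR), and -0.70 without sham replicate 1. Cd247, the zeta chain, had 1.29, 1.67, 3.41 and 1.17 CPM in CB-100 and 3.25, 1.51 and 1.55 CPM in sham, with a log2 change of -0.19 (SE 0.46). Its exons overlap those of Pou2f1 on the opposite strand and its counts are non-whole in 5 libraries, so it is uncertain. Pou2f1 itself stood at 22.9 to 38.6 CPM in CB-100 and 33.3 to 44.6 CPM in sham.

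Coreceptors and proximal kinases had overlapping summed levels, 2.37 to 4.11 CPM in CB-100 and 2.21 to 4.05 CPM in sham. Cd4, the coreceptor of helper T cells, also found on some macrophages and dendritic cells, had 1.07, 1.37, 1.29 and 0.79 CPM in CB-100 and 1.67, 1.58 and 1.03 CPM in sham (-0.34 on the log2 scale, SE 0.35, adjusted p = 0.581 by edgeR). Lck, the kinase that starts receptor signalling, had 0.93, 1.19, 0.72 and 0.56 CPM in CB-100 and 0.42, 0.69 and 0.47 CPM in sham (0.68 on the log2 scale, SE 0.43, adjusted p = 0.364 by edgeR). For both genes the groups overlapped. Cd8a, the alpha chain of the coreceptor of cytotoxic T cells, was too low to test, with 7, 9, 7 and 16 counts in CB-100 and 4, 16 and 11 counts in sham. Its partner Cd8b1 had 12 counts in CB-100 and 8 in sham, and Zap70 had 12 and 14.

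Among surface and costimulatory receptors, Cd27, a receptor of the tumour necrosis factor family on T and B cells, was the most abundant, at 1.98 CPM per kb over all libraries. It had 3.15, 5.21, 3.96 and 2.09 CPM in CB-100 and 7.24, 3.57 and 7.10 CPM in sham (-0.75 on the log2 scale, SE 0.36, adjusted p = 0.240 by edgeR). Cd27 lies on chromosome 6 at 125232622 to 125237010, and overlaps Vamp1 on the opposite strand without shared exon bases, so reads from Vamp1 introns there cannot be told apart from Cd27 without strand. Vamp1, a vesicle fusion protein of nerve and muscle, had 37.0, 51.3, 46.0 and 24.3 CPM in CB-100 and 80.2, 49.3 and 67.5 CPM in sham. Cd27 stood at 0.0851 to 0.101 of the Vamp1 level in CB-100 libraries and 0.0725 to 0.105 in sham libraries. The part of Vamp1 in the count of Cd27 was not tested.

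The other genes of this group were near the filter, and their groups overlapped. Cd5, which dampens receptor signals and is named after its values were seen, had 0.50, 1.00, 0.14 and 0.14 CPM in CB-100 and 1.41, 0.89 and 0.56 CPM in sham (-1.18 on the log2 scale, SE 0.68, adjusted p = 0.320 by edgeR). Il7r, the receptor of a survival cytokine, had 6, 19, 11 and 7 counts in CB-100 and 18, 12 and 10 counts in sham. It gave a log2 change of 0.085 (SE 0.61) and the costimulatory receptor Cd28 one of -0.33 (SE 0.56). Cd2, an adhesion receptor, had 4, 0, 2 and 8 counts in CB-100 and 5, 7 and 4 counts in sham. Icos, a costimulatory receptor, had 30 counts in CB-100 and 10 in sham. Of 4 tested genes 0 passed, 1 estimate was above 0 and 3 were below.

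Of the regulatory T-cell genes, Foxp3, the factor that defines these cells, had 0.92, 0.89, 0.64 and 1.61 CPM in CB-100 and 1.45, 0.36 and 0.71 CPM in sham. The groups overlapped (0.30 on the log2 scale, SE 0.53, adjusted p = 0.763 by edgeR). Exons of Ccdc22 and Ppp1r3f overlap Foxp3 on the opposite strand and its counts are non-whole in each of the 7 libraries, so it is uncertain. Ctla4, an inhibitory receptor, had 30 counts in CB-100 and 22 in sham and was not tested.

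Over the 20 T-cell genes, the summed level was 12.7, 20.2, 15.0 and 13.4 CPM in CB-100 and 23.7, 17.8 and 15.1 CPM in sham. Of 10 tested genes 0 passed in edgeR's test, with a median log2 change of -0.26 and estimates of 4 above and 6 below 0. In the fit without the filter, which took in all 20, 9 estimates were above 0 and 11 below.

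Cytotoxic and NK genes summed higher in 3 of the 4 CB-100 libraries than in any sham library, and 0 of 2 tested genes passed in edgeR's test. Their summed level was 4.22, 3.84, 1.87 and 4.42 CPM in CB-100 and 1.72, 2.75 and 1.36 CPM in sham, where CB-100 replicate 3 lay within the sham range. Prf1 and Ctsw, described below, held most of that sum in CB-100 replicates 1, 2 and 4. A sum without these 2 genes was not computed, so the order of the sums is not one of the whole list. Without the filter, 6 of the 8 estimates of genes with any count were above 0, beside 16631 of 31875 over all genes with any count. Prf1, the pore-forming perforin, had 28, 10, 7 and 21 counts in CB-100 and 11, 6 and 7 counts in sham. That is 2.00, 0.91, 0.50 and 0.98 CPM in CB-100 and 0.57, 0.41 and 0.33 CPM in sham, with overlap at CB-100 replicate 3. Its log2 change was 1.31 (SE 0.53, adjusted p = 0.172 by edgeR), and 0.87 without CB-100 replicate 1. Ctsw, a cysteine protease of killer cells, had 1.14, 1.10, 0.43 and 1.95 CPM in CB-100 and 0.42, 0.55 and 0.38 CPM in sham (1.40 on the log2 scale, SE 0.53, adjusted p = 0.151 by edgeR). It shares exon bases with Fibp on the opposite strand, which stood at 15.1 to 24.7 CPM in CB-100 and 13.4 to 17.7 CPM in sham, so Ctsw is uncertain. Prf1 passed the filter mainly, and Ctsw only, through CB-100 libraries.

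The granzymes themselves were near the floor. Gzma had 2, 1, 0 and 2 counts in CB-100 and 3, 8 and 3 counts in sham, and Gzmb 4 counts in each group. Nkg7, a granule protein of killer cells, had 3, 6, 1 and 6 counts in CB-100 and 4, 6 and 4 counts in sham. The NK receptor chain Klrd1 had 5 counts in CB-100 and 2 in sham, the activating receptor Klrk1 35 and 13, and the NK receptor Ncr1 15 and 7. Ncr1, named after its values were seen, did not overlap between the groups on the CPM scale, on counts of only 3 to 5 in CB-100 and 0 to 4 in sham. Of the 25 untested genes 3 were higher in CB-100 without overlap, where 11.1% of all tested genes were.

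**Figure D3:**
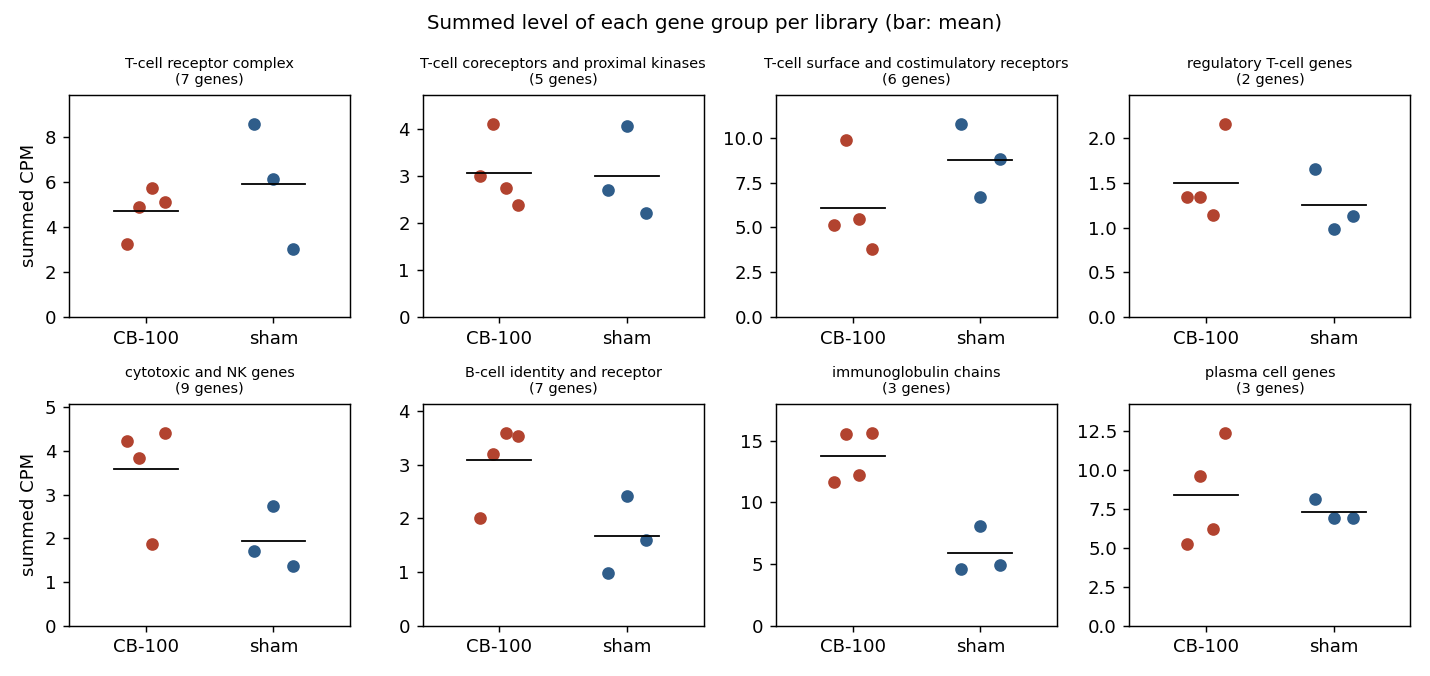
Summed CPM of the genes of each role (y axes, linear and starting at 0) in the 4 CB-100 libraries (left, red) and 3 sham libraries (right, blue), with the group mean as a bar. Only the immunoglobulin chains, at 11.7 to 15.7 CPM in CB-100 and 4.58 to 8.11 CPM in sham, show groups without overlap. Of these chains Ighm alone was without overlap by itself, while for Igkc and Ighd the groups overlapped.

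B-cell identity genes were mostly under the filter. The 7 genes summed to 2.00, 3.20, 3.60 and 3.54 CPM in CB-100 and 0.99, 2.40 and 1.598 CPM in sham, and CB-100 replicate 1 lay below sham replicate 2. Cd79a, a signalling chain of the B-cell receptor, was the 1 gene tested and gave a log2 change of 0.19 (SE 0.44, adjusted p = 0.823 by edgeR). It had 10, 10, 7 and 15 counts in CB-100 and 7, 13 and 13 counts in sham. Its partner Cd79b had 3, 4, 2 and 17 counts in CB-100 and 2, 9 and 7 counts in sham. Both genes overlapped between the groups. In the fit without the filter the 7 estimates were above 0, and 0 of the 7 passed. Over all genes with any count, 16631 of 31875 estimates were above 0 in that fit.

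Among untested B-cell genes, Pax5 and Cd22 did not overlap between the groups on the CPM scale, and both are named after their values were seen. With Ncr1 they make up the 3 of 25 untested genes that were higher in CB-100 without overlap. Of all tested genes 11.1% were so, and the share over all untested genes was not computed. Pax5, the factor that commits cells to the B lineage, had 6, 8, 17 and 11 counts in CB-100 and 1, 3 and 5 counts in sham. Cd22, an inhibitory receptor of B cells, had 7, 5, 12 and 22 counts in CB-100 and 8, 3 and 5 counts in sham. Without the filter their adjusted p in edgeR was 0.130 and 0.332. Gene models on the opposite strand share exon bases with both, so they are uncertain. Ms4a1, which encodes CD20, had 14 counts in CB-100 and 6 in sham, the kinase gene Blk 8 and 4, and Fcrla, an Fc receptor-like gene of B cells, 11 and 2.

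Ighm, the constant part of the IgM heavy chain, was the gene nearest to the threshold. It lies on chromosome 12 at 113418558 to 113422730 on the minus strand. It had 118, 146, 111 and 176 counts in CB-100 and 37, 77 and 66 counts in sham. This gave 8.44, 13.3, 7.98 and 8.19 CPM in CB-100 and 1.93, 5.29 and 3.10 CPM in sham, with no CB-100 value as low as the highest sham value. Means were 9.49 ± 2.57 CPM in CB-100 (SD, n = 4) and 3.44 ± 1.71 CPM in sham (SD, n = 3). The log2 change was 1.47 (SE 0.35, adjusted p = 0.0545 by edgeR), a 2.77-fold higher level that did not pass. It passed in DESeq2 (adjusted p = 0.00204), in limma voom (adjusted p = 0.0318) and in edgeR without the filter (adjusted p = 0.0158). Without sham replicate 2 it passed in edgeR's test with a log2 change of 1.90 (adjusted p = 0.0425), and without each other library the adjusted p was 0.0636 to 0.190. With sex as a covariate the log2 change was 1.44 (adjusted p = 0.0773 by edgeR).

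Other antibody genes gave a different pattern across the libraries. Igkc, the constant part of the kappa light chain, had 2.93, 1.83, 3.24 and 7.30 CPM in CB-100 and 2.60, 2.54 and 1.36 CPM in sham. CB-100 replicate 4 was the highest, and CB-100 replicate 2, the highest for Ighm, lay above sham replicate 3 only. The log2 change was 0.85 (SE 0.47, adjusted p = 0.307 by edgeR), and 0.31 without CB-100 replicate 4. Ighd, the IgD heavy chain, had 4, 4, 14 and 4 counts in CB-100 and 1, 4 and 9 counts in sham. Per kilobase of exon and over all libraries, Igkc stood at 5.86 CPM per kb, Ighm at 3.66 and Ighd at 0.195.

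Variable segments of antibody genes are separate genes in the annotation and were not among the 42. All 348 of them together held 69, 58, 45 and 334 counts in CB-100 and 80, 64 and 64 counts in sham. Scaled, this was 4.94, 5.30, 3.24 and 15.5 CPM in CB-100 and 4.17, 4.40 and 3.01 CPM in sham. CB-100 replicate 4 stood apart, and the ratio of group means was 1.88 with it and 1.16 without it. Segments with at least 1 count numbered 39, 40, 26 and 106 in CB-100 and 45, 42 and 36 in sham. In CB-100 replicate 4 the leading segment, Igkv3-7, held 4.72% of segment counts, and in the other libraries the leading segment held 5.80% to 9.38%. Ighm had 3.28, 5.21, 5.05 and 1.24 counts per heavy chain V count in CB-100 and 0.841, 3.21 and 1.94 in sham, with overlap between the groups.

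Switched antibody classes, in a list with plasma cell factors, had 0 of 10 tested genes pass in edgeR's test. Igha, the IgA heavy chain, had 1.93, 1.28, 0.72 and 14.0 CPM in CB-100 and 2.29, 3.44 and 1.46 CPM in sham (0.96 on the log2 scale, SE 0.97, adjusted p = 0.580 by edgeR), and is named after its values were seen. Without CB-100 replicate 4 its log2 change was -0.85, the other direction. CB-100 replicate 4 was the highest library for Igha, Igkc and the variable segments. The genes of that list with the smallest p were Eaf2, a transcription elongation factor (-0.69 on the log2 scale, adjusted p = 0.241 by edgeR), and Irf4, a factor of plasma cells also made by adipocytes. Irf4 had 36.1, 91.1, 16.4 and 26.5 CPM in CB-100 and 467, 33.6 and 35.7 CPM in sham (adjusted p = 0.247 by edgeR), with a log2 change of -2.08, and of 0.28 without sham replicate 1.

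**Figure D4:**
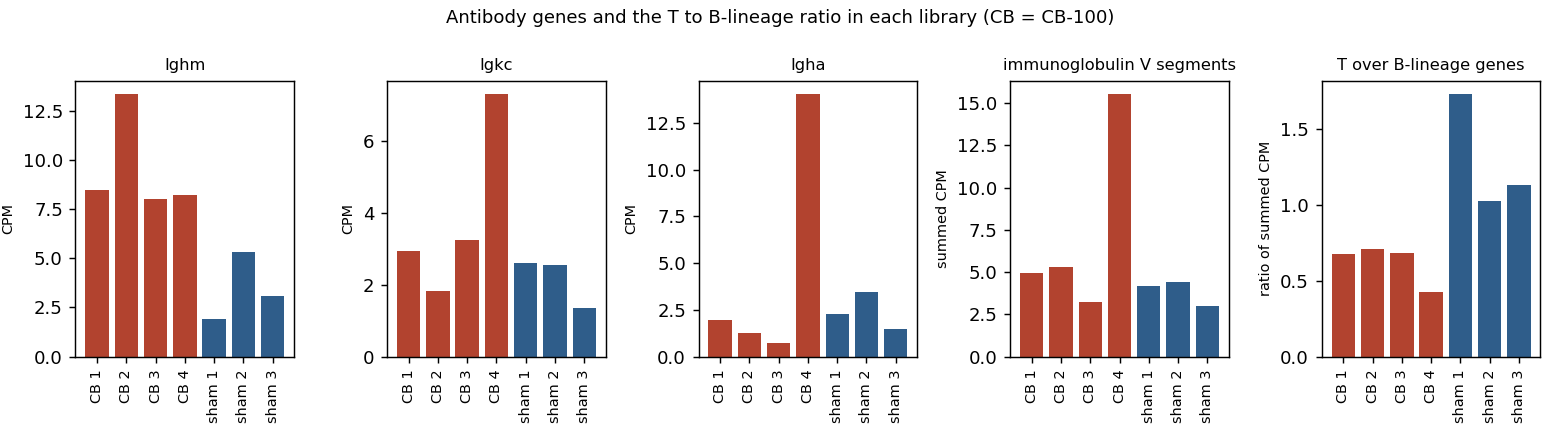
Bars give, for each library, the CPM of Ighm, Igkc and Igha, the summed CPM of the immunoglobulin variable segments, and the ratio of summed T-cell to summed B-lineage CPM, with CB-100 libraries in red on the left and sham in blue on the right. Ighm is higher in each CB-100 library, while Igha and the variable segments are high in CB-100 replicate 4 alone.

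Plasma cell genes overlapped between the groups. Jchain, which joins IgM and IgA units, had 1.29, 1.28, 0.58 and 2.79 CPM in CB-100 and 1.35, 1.17 and 0.52 CPM in sham (0.59 on the log2 scale, SE 0.55, adjusted p = 0.550 by edgeR), and its log2 change was 0.05 without CB-100 replicate 4. Sdc1, a heparan sulfate proteoglycan of plasma cells that epithelial and stromal cells also make, had 3.86, 8.31, 5.47 and 9.26 CPM in CB-100 and 6.56, 5.63 and 6.20 CPM in sham (0.13 on the log2 scale, SE 0.30, adjusted p = 0.818 by edgeR). At 1.70 CPM per kb over all libraries it exceeded Jchain (0.509) and Mzb1 (0.118). Mzb1, a chaperone of antibody assembly, had 10 counts in CB-100 and 9 in sham.

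A ratio of lineages within a library did not depend on how the library was scaled. The summed T-cell level was 0.674, 0.713, 0.684 and 0.425 times the summed B-lineage level in CB-100 and 1.73, 1.02 and 1.13 times in sham, without overlap. Leaving out the 3 immunoglobulin chains, it was 1.76, 1.58, 1.54 and 0.844 times in CB-100 and 2.60, 1.92 and 1.78 times in sham. The highest CB-100 library (replicate 1) then lay just under the lowest sham library (replicate 3). The B-lineage sum left was mostly Sdc1, which epithelial and stromal cells also make. Sdc1 held 3.86, 8.31, 5.47 and 9.26 CPM of it in CB-100 and 6.56, 5.63 and 6.20 CPM in sham. This ratio is therefore not one of T to B lymphocytes, and a ratio without Sdc1 was not computed. Cd27, Cd3e, Cd247 and Foxp3, which overlap other genes, made up 5.78, 9.04, 8.86 and 6.22 CPM of the T-cell sum in CB-100 and 16.5, 7.99 and 10.1 CPM in sham. Without these 4 genes the ratio was 0.367, 0.394, 0.281 and 0.228 in CB-100 and 0.529, 0.565 and 0.379 in sham, so that the groups overlapped at CB-100 replicate 2 and sham replicate 3. They also overlapped without every T-cell and B-lineage gene that overlaps a gene on the opposite strand, at 0.239 to 0.398 in CB-100 and 0.382 to 0.570 in sham. The 13 B-lineage genes summed to 18.9, 28.3, 22.0 and 31.6 CPM in CB-100 and 13.7, 17.4 and 13.4 CPM in sham, with 0 of 5 tested genes passing in edgeR's test and a median log2 change of 0.59.

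Further lymphocyte genes outside the 42 gave no call in edgeR's test. In the further T-cell list 0 of 14 tested genes passed (median log2 change 0.07), with Ptpn22, a phosphatase, at 0.41 among those with the smallest p. Further NK and cytotoxic genes gave 0 of 6 (median 0.54), with Klra8, an NK receptor, at 1.42 and Il2rb, an interleukin receptor chain, at 0.57. Those 6 include Cma1 (0.53), which is also in the list of mast cell and platelet markers, so that median is not one of NK genes alone. Further B-cell genes gave 0 of 10 (median 0.25), with Bank1, a scaffold of B-cell receptor signalling, at 1.12 and Swap70, a signalling protein of B and other cells, at 0.27. Counts of Klra8 are non-whole in 3 libraries and those of Swap70 in 7. Swap70 also shares exon bases with Gm45515, so both genes are uncertain. The 16 pan-leukocyte genes were all tested and 0 passed, with 13 estimates above 0 and a median of 0.31. Over all genes tested, 8873 of 16823 estimates were above 0. Il2rg, the common cytokine receptor chain, gave 1.57 (adjusted p = 0.103 by edgeR) and Ptprc, which encodes CD45, 0.53 (adjusted p = 0.108 by edgeR), both without overlap between the groups. Il2rg shares exon bases with Gm20489 and its counts are non-whole in 3 libraries, so it is uncertain.

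Genes of lymphoid tissue gave 1 call. Cxcl13, the chemokine that draws B cells into follicles, was lower in CB-100, at 0.14, 0.82, 0.86 and 0.09 CPM, against 4.79, 2.47 and 5.41 CPM in sham (-3.22 on the log2 scale, SE 0.65, adjusted p = 0.0381 by edgeR). The call ended when any library other than CB-100 replicate 4 was left out, with adjusted p between 0.0508 and 0.146 in edgeR's test and a log2 change of -3.76 to -2.93. The groups did not overlap. The list as a whole had 10 tested genes, 0 higher, 1 lower and a median of 0.038. Its summed level was 192 to 392 CPM in CB-100 and 179 to 185 CPM in sham, and the direction of that sum rested on 1 gene. Cxcl12, a chemokine of stromal cells that is named after its values were seen, had 124, 115, 119 and 296 CPM in CB-100 and 67.8, 86.1 and 56.5 CPM in sham (1.22 on the log2 scale, adjusted p = 0.0945 by edgeR). Without Cxcl12 the list summed to 74.1, 95.4, 73.0 and 96.5 CPM in CB-100 and 111, 98.5 and 126 CPM in sham, lower in CB-100 without overlap. Madcam1 and Glycam1, of lymph node vessels, had levels of at most 0.14 and 0.50 CPM in CB-100 and 0.27 and 0.21 CPM in sham, and are named after their values were seen. Other genes of the list were present in each library, among them Ccl21a, a chemokine of lymphoid stroma, at 3.33 to 6.95 CPM in CB-100 and 2.43 to 5.18 CPM in sham. Ccl21a has near-identical copies and its value is uncertain. Ccl19, another such chemokine, stood at 0.72 to 1.42 CPM in CB-100 and 1.21 to 1.68 CPM in sham. The chromosome 4 entry of Ccl19 has non-whole counts in 7 libraries, so Ccl19 is uncertain too. Rag1, which recombines receptor genes in immature lymphocytes, was at 0 in 6 of the 7 libraries and at 0.05 CPM in CB-100 replicate 4, and of that list of 7 genes only Cd1d1 was tested (0.52 on the log2 scale, adjusted p = 0.262 by edgeR). Counts of Cd1d1 are non-whole in 6 libraries, so it is uncertain.

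Markers of other cell types gave no call in edgeR's test. Macrophage markers summed to 121 to 272 CPM in CB-100 and 135 to 209 CPM in sham, well above the lymphocyte genes, with 0 of 12 passing in edgeR's test and a median of -0.10. Cx3cr1, a chemokine receptor of monocytes that NK and some T cells also carry, gave 1.93 (adjusted p = 0.096 by edgeR), and Adgre1, which encodes F4/80, gave 0.50. The gene model of Cx3cr1 overlaps Csrnp1, Gorasp1 and Xirp1, so its count is uncertain. Dendritic cell markers gave 0 of 4 (Zbtb46 at 0.50 and Ccr9 at 0.78) and summed to 56.7 to 80.9 CPM in CB-100 and 40.9 to 55.7 CPM in sham, without overlap. Ccr9 shares exon bases with Slc6a20a and its counts are non-whole in 3 libraries, so it is uncertain. Mast cell and platelet markers gave 0 of 8 and endothelial markers 0 of 9. Estimates of the endothelial markers were above 0 for 8 and below 0 for 1, with a median of 0.32. Their part in the values of the 42 genes was not tested.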

How the data were processed

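Total RNA of brown adipose tissue from 7 mice was sequenced on an Illumina NovaSeq 6000 and, per the labels' protocols, STAR 2.7.9a placed the reads on the primary assembly of Ensembl release 101. Salmon 1.5.2, featureCounts 2.0.3, Subread, limma and edgeR also appear in the submitters' processing notes, which do not say what each did. Strand and counting options were not given in the sources used here. In the deposited table are unnormalized expected counts for each gene, some of them non-whole. Of 55774 lines, 287 repeated an identifier with identical values and were removed. Positions, exon lengths and overlaps came from GENCODE M21 (GRCm38), which held 99.5% of the identifiers. Groups follow the treatment label, and replicate numbers follow sample order and pair nothing.

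Counts were rounded, filtered with edgeR's filterByExpr (about 0.674 CPM in 3 libraries and 15 counts in all), scaled by TMM (factors 0.755 to 1.25) and tested with edgeR 4.0.16 (glmQLFit and glmQLFTest, robust) in R 4.3.3. Benjamini-Hochberg adjustment ran over 16823 genes, and the threshold was 0.05. The SE is the change over the square root of F. CPM use TMM-scaled totals. Only animal codes in the titles mark replicates as separate mice, so p-values reflect only how these samples vary, which may be technical. With 10815101 to 28528471 counts per library, precision for most members is limited by their own counts. The 42 members, the gene lists and the tests were chosen with earlier results of these data known. Values per library are given for called members and the 3 per list with the highest CPM per kb, and further members shown per library were chosen after their values were seen. Of further lists, called genes or the 2 with the smallest p are named. Some genes that this rule would name are not reported here. Alternatives were DESeq2 1.42.0, its size factors, upper quartile scaling, no filter, at least 1 CPM in 3 libraries, limma 3.58.1 voom with quality weights, no mitochondrially encoded genes, sex as a covariate, CPM per raw total and each library left out.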

Additional observations from a re-analysis of the deposited data

Results flagged for a closer look

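Of 30 values checked over the 4 CB-100 libraries (each tested gene, each summed list and both sums of variable segments), 2 had a library set apart from the other 3 by a gap above Dixon's 95% critical value. By chance alone about 1 in 20 such checks would stand out. Ighm stood at 13.3 CPM in CB-100 replicate 2, where the other 3 CB-100 libraries had 8.44, 7.98 and 8.19 CPM. The summed immunoglobulin variable segments stood at 15.5 CPM in CB-100 replicate 4, where the other 3 had 4.94, 5.30 and 3.24 CPM. The libraries set apart were not the same for these values.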

How the results depend on the processing

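No paired analysis was possible because the labels give CB-100 and sham samples no shared replicate numbers. The number of genes called was 622 in edgeR's test, 1968 with DESeq2, 1150 with limma voom and 238 with sex as a covariate, and it was 8 to 610 with a library left out. The cause was not tested. Of the 42 genes 0 were called, against 1 without the filter, 2 with DESeq2 and 1 with limma voom, and 0 to 1 with a library left out. The log2 ratio of summed B-lineage CPM was 0.77, and 0.35 without the immunoglobulin chains, where Sdc1 held most of the sum. For all 42 genes it was 0.31, against 0.054 with CPM per raw library total and 0.027 without the immunoglobulin chains. Among the 17 tested genes, signs changed for 5. Cd247 gave 0.14 with limma voom and -0.65 to 0.27 with a library left out, Il7r -0.54 to 0.38, Foxp3 -0.042 to 0.95, Cd79a -0.090 to 0.51, and Sdc1 -0.038 with limma voom and -0.069 to 0.33 with a library left out. For 4 genes of other lists (Cxcl13, Igha, Irf4 and Mki67) the same alternatives were added after seeing the data. Igha gave 0.96, but -0.45 with limma voom and -0.85 to 1.31 with a library left out. Irf4 gave -2.08, and -2.76 to 0.28 with a library left out. Cxcl13 kept its call under each setting that used all libraries. Trac, Ctsw, Prf1 and other genes near the filter left the test under some settings and then gave no value. The ratio of T-cell to B-lineage sums lost its separation of the groups without genes that overlap others, a check added after seeing the data. Low counts limit the precision of the 25 untested genes.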

Other observations

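Genes of dividing cells differed widely between the CB-100 libraries. Mki67, a marker of cycling cells, had 1.86, 5.21, 0.58 and 13.0 CPM in CB-100 and 0.99, 2.27 and 0.71 CPM in sham (2.01 on the log2 scale, SE 0.96, adjusted p = 0.248 by edgeR). Without CB-100 replicate 4 the log2 change was 0.95. Top2a, a topoisomerase of dividing cells, had 0.43, 2.28, 0.65 and 4.42 CPM in CB-100 and 0.57, 0.76 and 0.14 CPM in sham (adjusted p = 0.203 by edgeR). Of 5 tested genes of this list 0 passed, and CB-100 replicate 4, the highest library for antibody variable segments, was also the highest for both genes. Neutrophil markers had 0 of 3 tested genes pass, with a summed level of 4.31 to 7.49 CPM in CB-100 and 8.73 to 12.9 CPM in sham, without overlap between the groups. S100a9, a calcium-binding protein of neutrophils, gave a log2 change of -1.68 (SE 0.45, adjusted p = 0.069 by edgeR). Cxcr2, a chemokine receptor of neutrophils, gave -0.90 (SE 0.50, adjusted p = 0.302 by edgeR).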
